A study of Mus musculus with 4 samples.

Results

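Messenger RNA of 42 genes that build ribosomes was compared between risperidone and DMSO in 3T3-L1, a mouse cell line that can form adipocytes in culture. The 42 genes encode the regulator Myc, subunits and factors of RNA polymerase I, nucleolar proteins, proteins of the small nucleolar ribonucleoproteins (snoRNPs) and assembly factors of the small and the large ribosomal subunit. They were chosen by symbol and make up 42 of the 16051 genes of the expression table. Per the study's methods, differentiated 3T3-L1 cells received risperidone, an antipsychotic drug, or its vehicle DMSO for 48 h, with 100 μM as the dose used in vitro. Each treatment has 2 libraries, and each library holds RNA pooled from 3 cultures, so p-values measure the spread between pools and not between single cultures. By their labels, all 4 libraries come from NIH SWISS cells called adipocytes, of embryo tissue, with a control that is untreated, while the extraction text speaks of retinas. The control is called DMSO here, as in the study's methods.

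The label adipocyte was only in part borne out by marker genes. Of 12 adipocyte markers, only Lpl, Fabp4, Pparg and Cd36 reached a mean of 1 FPKM (a level scaled by gene length and depth), and the adipokine gene Adipoq had at most 1 count in any library. The summed adipocyte markers stood at 1010 and 1092 CPM (counts scaled by depth) with DMSO and 809 and 814 CPM with risperidone. Most of that sum was Lpl (916 and 980 CPM against 752 and 749 CPM), which was called lower (log2 fold change -0.24), as was Fabp4 (-1.09), while Pparg (0.12) and Cd36 (0.27) were not called. Of 10 preadipocyte and fibroblast markers 9 were tested, and their sum was 3387 and 3366 CPM with DMSO and 4866 and 4685 CPM with risperidone. That sum was mostly Col1a1 (2201 and 2135 CPM against 4143 and 3913 CPM), and the markers moved both ways. Col1a1 (log2 fold change 0.99), Thy1 (1.05), Dlk1 (1.52) and Ly6a (1.20) were called higher, Col3a1 (-0.96), Pdgfrb (-0.50) and Gas1 (-2.70) lower, and Pdgfra and Dcn were not called. Ly6a was low, at 1.59 and 1.51 CPM with DMSO and 2.09 and 4.63 CPM with risperidone, so its rise rests mostly on risperidone replicate 2. Retina markers summed to between 3.32 and 4.15 CPM in every library. Macrophage markers summed to 3.24 and 4.60 CPM with DMSO and 7.56 and 8.57 CPM with risperidone. Most of that was Cd68, which was called higher (log2 fold change 1.19). Kidney markers summed to 226 CPM in risperidone replicate 2 and to between 4.24 and 6.41 CPM in the other libraries, so results are also given without that library. Bulk RNA cannot tell fewer cells of a type from less RNA per cell. The part of these markers in the results below was not tested.

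In the nucleolus, RNA polymerase I copies the ribosomal DNA into a long precursor RNA. The snoRNPs modify chosen nucleotides of this precursor, and large sets of assembly factors cut it, fold it and load it with ribosomal proteins until a small and a large subunit leave the nucleus. Growing and dividing cells use the pathway most, and Myc, a transcription factor that binds the E-box with its partner Max, is known for raising the genes of this pathway.

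The E-box, CACGTG, reads the same on both strands and was searched in RefSeq promoter windows of build GRCm38.p6, from 250 bases before to 50 bases after a gene's start. Of the 37 genes of the set with a window, 7 held it (18.9%), against 12.1% of 8329 tested genes with a window and 8.09% of the 27025 genes of the promoter table. Counted by window, it was in 15.2% of the 46 windows of the set and 7.15% of all 32851 windows. By the calls given below, it was found in 5 of 22 higher genes with a window, 1 of 5 lower genes and 1 of 10 genes that were not called. The 8 boxes are shown with their surroundings because they hold the motif that Myc and Max are known to bind, each as 30 bases on the strand of its gene with the E-box in capitals.
Mybbp1a: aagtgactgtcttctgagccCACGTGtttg
Tsr1: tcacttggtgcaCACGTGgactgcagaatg
Wdr43: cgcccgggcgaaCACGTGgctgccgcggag
Pes1: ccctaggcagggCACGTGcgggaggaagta
Nop2: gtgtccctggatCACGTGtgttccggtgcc
Rrn3, far box: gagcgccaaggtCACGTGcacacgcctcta
Rrn3, near box: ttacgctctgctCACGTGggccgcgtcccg
Utp20: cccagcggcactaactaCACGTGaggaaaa
The stretches lie at chr11:72441347-72441376 (plus strand) for Mybbp1a, chr11:74898092-74898121 (plus) for Tsr1, chr17:71616220-71616249 (plus) for Wdr43, chr11:3963965-3963994 (plus) for Pes1, chr6:125131811-125131840 (plus) for Nop2, chr16:13780472-13780501 and chr16:13780639-13780668 (both plus) for Rrn3, and chr10:88826765-88826794 (minus) for Utp20. In 5 of the genes the box lies after the start, its first base at +3 in Pes1, +18 in Wdr43, +25 in Tsr1, +38 in Utp20 and +41 in Mybbp1a. In Nop2 it lies 60 bases before the start, and Rrn3 has boxes 215 and 48 bases before it. Distances are counted from the start site that each window was built on, which in Wdr43 is not the first base of the RefSeq gene (chr17:71616178). A core of the ETS motif (CCGGAAG on either strand) was found for 32.4% of the genes of the set and 22.2% of the tested genes, and the CCAAT box (CCAAT on either strand) for 29.7% and 43.9%. A match is a description of letters and not a bound site.

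All 42 genes passed the filter of a mean of at least 1 FPKM, and 26 were higher and 5 were lower with risperidone at an adjusted p under 0.05 (edgeR's quasi-likelihood test, Benjamini-Hochberg adjustment). Over all 10243 genes tested, 32.1% were called higher and 32.2% lower, 64.3% together, so a call in itself was common in this comparison. The lower genes were Polr1a, Polr1b, Ubtf, Nop56 and Utp20. The median log2 fold change of the set was 0.27, against 0.00 for all genes tested. With a change of at least 0.5 on the log2 scale also required, 11 genes were higher and 3 lower, where 12.4% and 15.3% of all genes were. In CPM scaled by TMM factors, both risperidone libraries lay above both DMSO libraries for 30 genes and below them for 9, and those of Ncl, Nop58 and Ebna1bp2 overlapped. On this scale, 41.2% of all genes were separated upward and 41.7% downward. In FPKM, 27 genes of the set lay above, 10 below and 5 overlapped. The shares of all genes were not computed in FPKM, so these counts have no background to stand against. The 42 genes took 0.318% and 0.321% of the counts of the DMSO libraries and 0.378% and 0.375% of the counts of the risperidone libraries. Without Npm1, the highest gene, these shares were 0.271% and 0.274% against 0.297% and 0.297%.

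**Figure D1:**
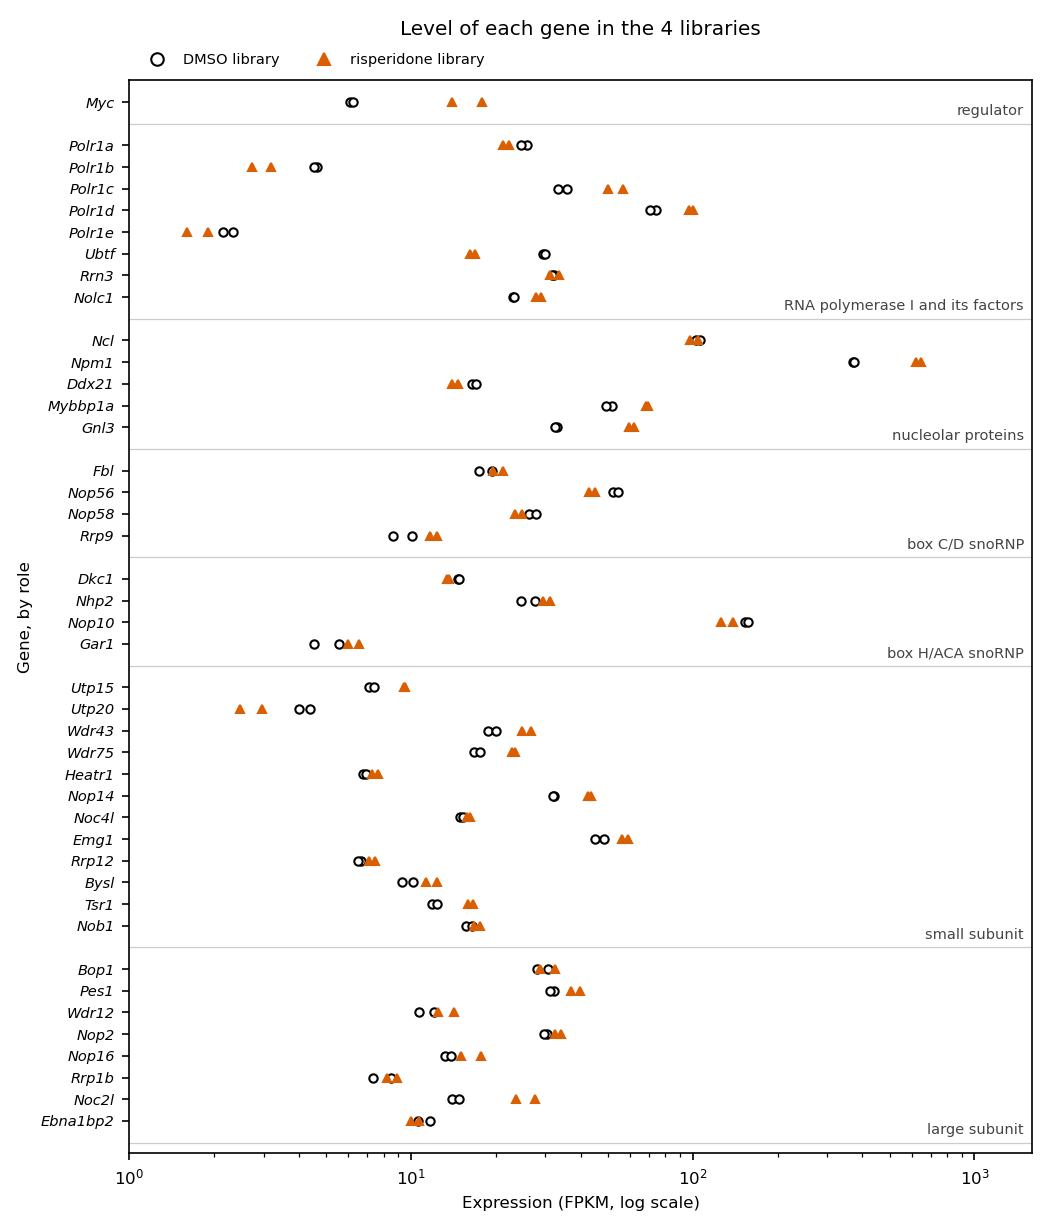
Expression of the 42 genes in FPKM on a log axis, by role, with a circle for each DMSO library and a triangle for each risperidone library. Npm1 stands highest, between 371 and 644 FPKM, Polr1e lowest, between 1.60 and 2.34 FPKM, and the circles and triangles of Myc, Npm1, Gnl3, Noc2l, Ubtf and Polr1b are apart.

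The number of genes in each direction depended on the scaling. With the deposited TPM values, which sum to the same total in every library, the median over all genes moved to -0.22 on the log2 scale, and 13 genes of the set were higher and 12 lower (limma on log2(TPM + 1)), against 15.0% and 51.7% of all genes. The median of the set moved with it to 0.04. Relative to the median of all genes, the median of the set lay between 0.22 and 0.29 higher under all 16 settings, the reported one included. Cytosolic ribosomal protein genes took 3.81% and 3.89% of the counts with DMSO and 6.91% and 6.27% with risperidone. In the reported edgeR fit, 75 of these 77 genes were higher, against 32.1% of all genes. FPKM values are not TMM-scaled, so a fold taken from them differs from the fitted fold. Without risperidone replicate 2, 27 genes of the set were higher and 5 lower (32.3% and 32.7% of all genes), with a median of 0.28. The calls of 16 genes kept their direction and stayed past the threshold under the 15 alternatives of scaling, filter, test, block and libraries, wherever these tested them. These were Myc, Polr1c, Polr1d, Npm1, Mybbp1a, Gnl3, Utp15, Wdr43, Wdr75, Nop14, Emg1, Tsr1 and Noc2l, which were higher, and Polr1b, Ubtf and Utp20, which were lower. Of the 16, Emg1 (0.40) and Utp15 (0.48) were under a log2 fold change of 0.5.

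**Figure D2:**
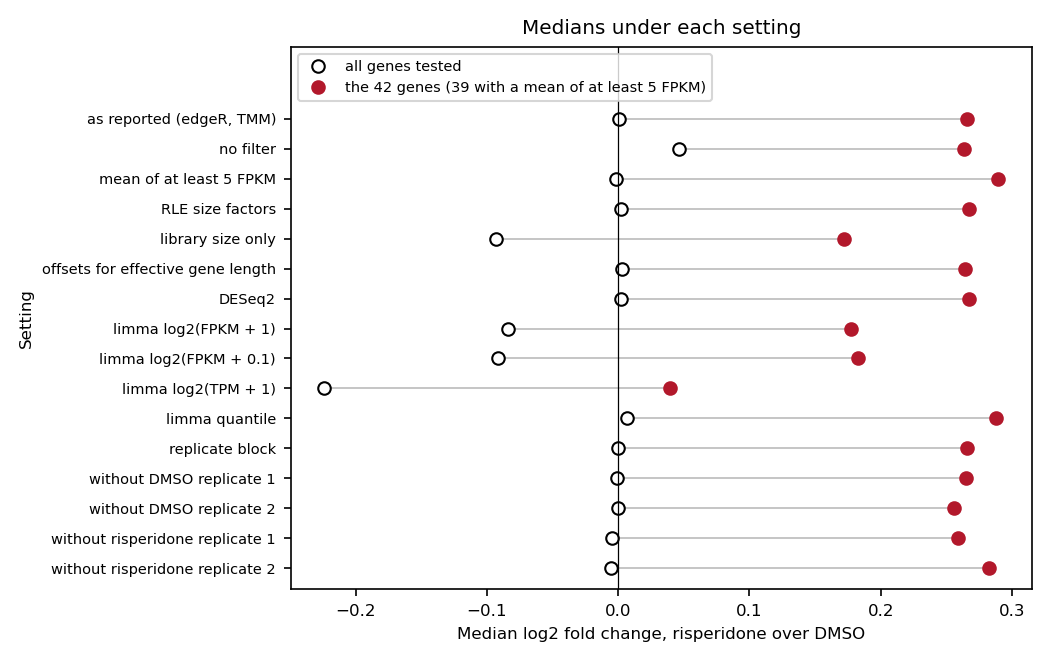
Median log2 fold change, risperidone over DMSO, of all genes tested (open circles) and of the genes of the set (filled circles) under each of 16 settings. The median of all genes moves from 0.05 without a filter to -0.22 with TPM, and the filled circle lies between 0.22 and 0.29 to the right of the open one in every line.

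Myc had the largest change of the set. It lies at chr15:61985341-61990361 (gene coordinates here are those of RefSeq on GRCm38.p6). Its level was 6.07 and 6.23 FPKM with DMSO and 17.85 and 14.00 FPKM with risperidone, with no overlap between treatments and a wider gap between the risperidone libraries than between those of DMSO. The log2 fold change was 1.47 (SE 0.113, adjusted p = 1.18e-06), a 2.77-fold rise, and ranged from 1.28 to 1.64 with 1 library left out. Of its network, the genes for partners and rivals that share Myc's kind of DNA-binding domain, 8 were tested, and 1 was higher and 6 were lower, against 32.1% and 32.2% of all genes. With TPM, 1 was higher and 7 were lower, against 15.0% and 51.7%. The repressor gene Mnt rose (log2 fold change 0.62), while the genes of the repressors Mxd1 (-0.85) and Mxd4 (-0.78) fell.

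**Figure D3:**
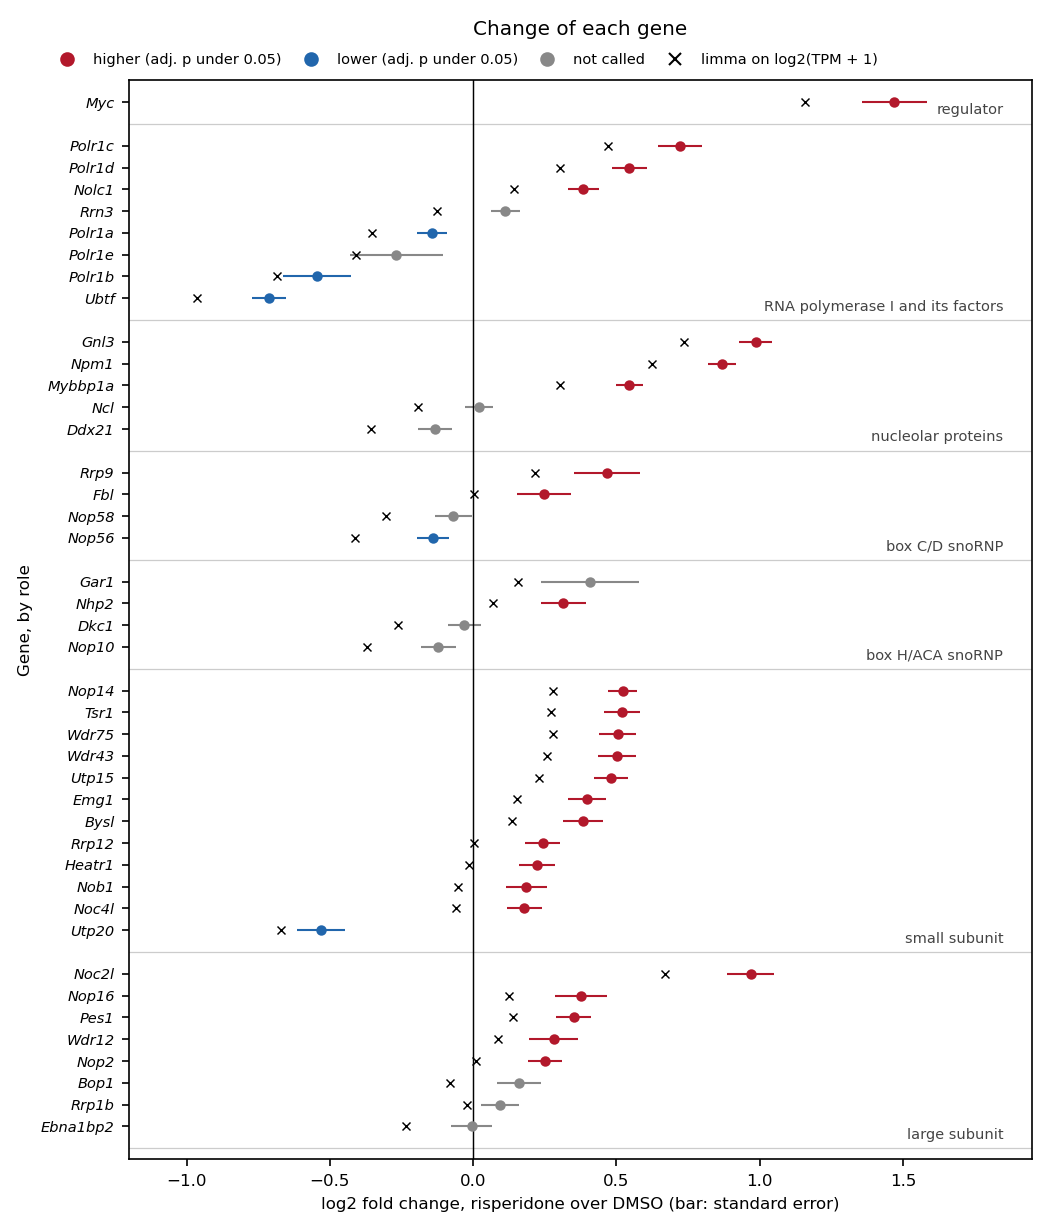
Log2 fold change of each gene, risperidone over DMSO, with its standard error as a bar, by role. Colours give the call at an adjusted p under 0.05 and crosses the same gene with limma on log2(TPM + 1). Myc leads at 1.47, Ubtf is lowest at -0.71, and the crosses lie to the left of the points.

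Among the 8 genes for RNA polymerase I and its factors, 3 were higher, 3 were lower and 2 were not called, with a median log2 fold change of -0.02. Over all genes, 32.1% were higher and 32.2% lower. With TPM, 2 were higher and 4 lower (15.0% and 51.7% of all genes). Polr1c and Polr1d, whose proteins serve in both RNA polymerase I and RNA polymerase III, rose. Polr1c (chr17:46243920-46248045) was at 35.82 and 33.20 FPKM with DMSO and 56.37 and 49.92 FPKM with risperidone, a log2 fold change of 0.72 (SE 0.0779, adjusted p = 1.39e-05). Polr1d (chr5:147076715-147111361) was at 74.36 and 70.33 FPKM with DMSO and 100.31 and 97.00 FPKM with risperidone (log2 fold change 0.54, SE 0.0613, adjusted p = 1.91e-05). In both genes the treatments were far apart compared with the gap between replicates. Polr1b (chr2:129100970-129128060), which encodes a large catalytic subunit, fell from 4.63 and 4.54 FPKM to 2.73 and 3.18 FPKM (log2 fold change -0.54, SE 0.118, adjusted p = 0.00194). Polr1a, for the largest subunit of the enzyme, was at 25.85 and 24.60 FPKM with DMSO and 21.16 and 22.21 FPKM with risperidone (log2 fold change -0.14, SE 0.0519, adjusted p = 0.0302). The call of Polr1a was lost without DMSO replicate 1 (adjusted p = 0.310), without DMSO replicate 2 (0.0579) and without risperidone replicate 1 (0.126). Polr1e, for a subunit found only in this polymerase, was the lowest gene of the set, at 2.16 and 2.34 FPKM against 1.60 and 1.90 FPKM, and its log2 fold change of -0.27 had an adjusted p of 0.171.

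The FPKM of Polr1a relative to Polr1c was 0.722 and 0.741 with DMSO and 0.375 and 0.445 with risperidone, and that of Polr1b relative to Polr1d was 0.0623 and 0.0646 against 0.0272 and 0.0328. Neither ratio overlapped between treatments, but this follows from the genes paired and adds no support. In FPKM, Polr1a and Polr1b lay below and Polr1c and Polr1d above with risperidone. With the other subunit genes added, the 6 genes for subunits found only in RNA polymerase I had 0 higher and 2 lower calls, between -0.54 and 0.22 on the log2 scale, and with TPM 0 higher and 5 lower. The 5 genes for subunits common to RNA polymerases I, II and III had 1 higher call, Polr2e (0.71), and 1 lower (1 and 2 with TPM). The 11 genes for subunits of RNA polymerase III alone had 6 higher and 3 lower calls (3 and 4 with TPM), from -1.27 for Polr3b to 0.79 for Polr3d. Over all genes, 32.1% were higher and 32.2% lower, and 15.0% and 51.7% with TPM. The subunit classes were formed after the values were seen.

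**Figure D4:**
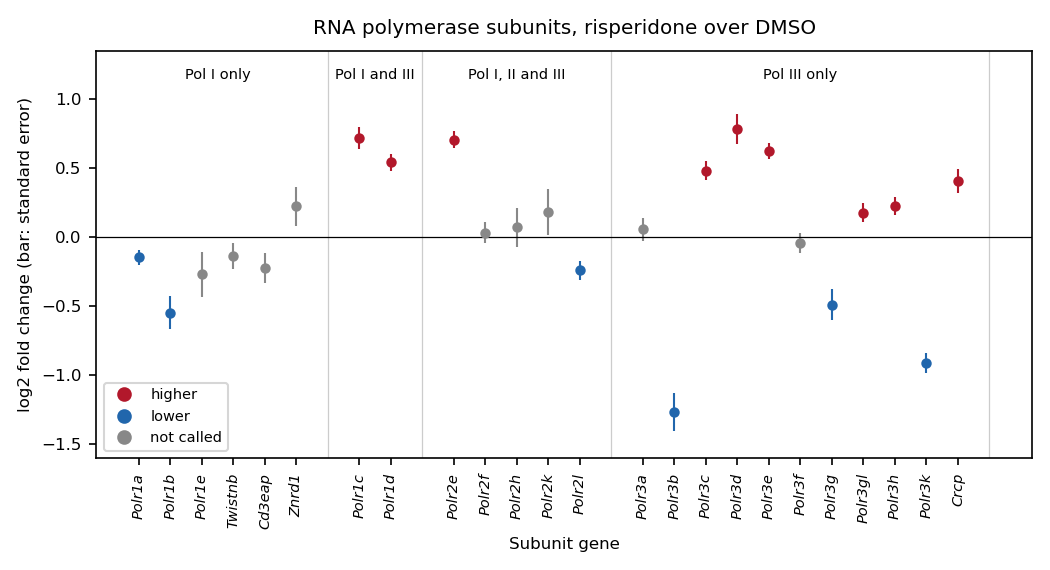
Log2 fold change, risperidone over DMSO, with its standard error, of each RNA polymerase subunit gene, by the polymerases that the subunit serves. The genes Polr1c and Polr1d are at 0.72 and 0.54, those for subunits of RNA polymerase I alone lie between -0.54 and 0.22, and those for RNA polymerase III alone spread from -1.27 to 0.79.

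Ubtf (chr11:102304560-102323649), whose protein UBF binds the ribosomal DNA and opens it for RNA polymerase I, showed the largest decrease of the set. It was at 29.42 and 29.89 FPKM with DMSO and at 16.21 and 16.82 FPKM with risperidone. Its log2 fold change was -0.71 (SE 0.0599, adjusted p = 2.28e-06) and stayed between -0.73 and -0.69 with 1 library left out. The replicates of each treatment were close and the treatments well apart. Rrn3, whose protein recruits the polymerase to its promoter, was at 32.17 and 31.58 FPKM with DMSO and at 31.13 and 33.41 FPKM with risperidone, which overlapped. Its log2 fold change was 0.11 (adjusted p = 0.0719), with limma on TPM it was -0.12, and without risperidone replicate 1 it was called (0.16, adjusted p = 0.0207). Nolc1, for a nucleolar phosphoprotein that binds snoRNPs and the polymerase, rose from 23.04 and 23.29 FPKM to 28.90 and 27.69 FPKM (log2 fold change 0.38, adjusted p = 9.50e-05), a call that was lost with TPM (0.14, adjusted p = 0.0541).

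Of 14 other genes for RNA polymerase I subunits and factors, 2 were higher, 3 were lower and 9 were not called (32.1% of all genes were higher and 32.2% lower), with a median of 0.02. Taf1d (0.78) rose and Taf1c (-0.74) fell, although both encode TBP-associated subunits of the promoter selectivity factor of RNA polymerase I. Ttf1, for the protein that stops the polymerase at the end of the ribosomal DNA unit, also fell (-0.63). RNA polymerase III and its factors had 7 higher, 8 lower and 6 uncalled genes of 21, against 32.1% higher and 32.2% lower of all genes, and the extremes were Polr3d (0.79), Polr3e (0.62), Polr3b (-1.27) and Polr3k (-0.91).

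Of the 5 genes for nucleolar proteins, 3 were higher and 2 were not called (32.1% of all genes were higher), and with TPM those 2, Ncl and Ddx21, were called lower (51.7% of all genes). Npm1 (chr11:33152498-33164142), which encodes the abundant nucleolar chaperone nucleophosmin, was the highest gene of the set, with rank 146 of all genes by mean FPKM. It rose from 371.38 and 372.28 FPKM to 643.82 and 621.85 FPKM, a log2 fold change of 0.87 (SE 0.0485, adjusted p = 1.42e-07). Npm1 alone held 14.7% and 14.6% of the counts of the set with DMSO and 21.5% and 21.0% with risperidone. Processed copies of Npm1 exist in the genome, and how reads shared with them were counted is not given in the sources used here. Gnl3 (chr14:31012433-31019131), for the GTP-binding protein nucleostemin, went from 32.95 and 32.52 FPKM to 62.11 and 59.16 FPKM (log2 fold change 0.99, SE 0.0578, adjusted p = 1.84e-07). It overlaps Glt8d1, whose log2 fold change was 0.12 (adjusted p = 0.0898). Mybbp1a, for a nucleolar protein that binds Myb, went from 51.54 and 49.40 FPKM to 68.31 and 69.60 FPKM (log2 fold change 0.55, adjusted p = 2.57e-06). In these 3 genes the gap between treatments was many times that between replicates.

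Ncl, for nucleolin, the other abundant nucleolar protein of the set, was at 102.88 and 105.77 FPKM with DMSO and 97.51 and 104.36 FPKM with risperidone. These values overlapped and the log2 fold change was 0.02 (adjusted p = 0.732), with a sign that changed under several scalings (-0.19 with TPM). The ratio of Npm1 to Ncl in FPKM was 3.61 and 3.52 with DMSO and 6.60 and 5.96 with risperidone. Ddx21, for an RNA helicase of the nucleolus, was at 16.41 and 17.05 FPKM with DMSO and 13.99 and 14.64 FPKM with risperidone. Its log2 fold change of -0.13 missed the threshold (adjusted p = 0.0760), and without risperidone replicate 2 it was called lower (-0.16, adjusted p = 0.0336).

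Genes for the core proteins of the snoRNPs had log2 fold changes from -0.14 for Nop56 to 0.47 for Rrp9, and 3 of the 8 were called higher and 1 lower, near the 32.1% higher of all genes and under the 32.2% lower. Box C/D particles place methyl groups on ribosomal RNA, and of their 4 genes 2 were higher, 1 was lower and 1 was not called. With TPM, where 15.0% of all genes were higher and 51.7% lower, 0 were higher and 2 were lower: Rrp9 (0.21, adjusted p = 0.0529 from limma) and Fbl (0.0047) lost their calls, and Nop58 (-0.30, adjusted p = 0.00161) was lower beside Nop56. Rrp9, for a protein of the particle that helps cut the small subunit RNA, was at 8.63 and 10.06 FPKM with DMSO and 12.39 and 11.67 FPKM with risperidone (log2 fold change 0.47, SE 0.114, adjusted p = 0.00416), and lost its call without DMSO replicate 1 (adjusted p = 0.0664). Fbl, for the methyltransferase fibrillarin, was at 19.38 and 17.39 FPKM with DMSO and 21.26 and 19.48 FPKM with risperidone. The lowest risperidone value of Fbl lay barely above the highest DMSO value, at a log2 fold change of 0.25 (adjusted p = 0.0385), and the call was lost without DMSO replicate 1 (0.0622), DMSO replicate 2 (0.343) or risperidone replicate 1 (0.159). Nop56, for a scaffold of the particle, fell from 52.13 and 54.26 FPKM to 45.07 and 43.00 FPKM (log2 fold change -0.14, adjusted p = 0.0480), and the call was lost without DMSO replicate 1 (0.153), DMSO replicate 2 (0.334) or risperidone replicate 2 (0.147). Nop56 overlaps Idh3b, which rose (0.68). Nop58, for the partner scaffold, was at 26.24 and 27.74 FPKM against 24.72 and 23.34 FPKM, with a log2 fold change of -0.07 (adjusted p = 0.366).

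Box H/ACA particles turn chosen uridines into pseudouridine, and of their 4 genes only Nhp2 passed the test. With TPM 0 were higher and 2 were lower (15.0% and 51.7% of all genes): Nhp2 lost its call (0.07, adjusted p = 0.418 from limma), and Dkc1 (-0.26, adjusted p = 0.00745) and Nop10 (-0.37, adjusted p = 0.000159) were called. Nhp2 was at 24.61 and 27.62 FPKM with DMSO and 29.42 and 31.09 FPKM with risperidone (log2 fold change 0.31, SE 0.0789, adjusted p = 0.00483), and lost its call without DMSO replicate 1 (adjusted p = 0.0800). Dkc1, for the pseudouridine synthase dyskerin, was at 14.73 and 14.86 FPKM against 13.60 and 13.47 FPKM, with a log2 fold change of -0.03 (adjusted p = 0.653). Gar1 was at 5.54 and 4.54 FPKM against 6.53 and 5.96 FPKM (0.41, adjusted p = 0.0564). It was called without risperidone replicate 2 (0.48, adjusted p = 0.0321). Nop10, the shortest protein of the particle, was at 152.80 and 157.49 FPKM with DMSO and 139.04 and 126.18 FPKM with risperidone (-0.12, adjusted p = 0.104). Nop10 was called lower without risperidone replicate 1 (-0.19, adjusted p = 0.0100) and with offsets for gene length (-0.34, adjusted p = 0.00014).

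Assembly factors of the small subunit were nearly all higher, with 11 of 12 genes called higher and 1 lower and a median log2 fold change of 0.39, against 32.1% higher and 32.2% lower over all genes. With TPM, 6 of the 12 were called higher and 1 lower (15.0% and 51.7% of all genes). Utp15, Wdr43, Wdr75 and Heatr1 encode proteins of the processome's early complex, which links synthesis of the precursor RNA to its processing. Wdr43 was at 18.80 and 20.09 FPKM with DMSO and 26.76 and 24.80 FPKM with risperidone, a log2 fold change of 0.50 (SE 0.0667, adjusted p = 6.31e-05). Wdr75 had a like change, from 16.75 and 17.62 FPKM to 23.43 and 22.88 FPKM (0.50, adjusted p = 4.42e-05). Utp15 went from 7.12 and 7.42 FPKM to 9.47 and 9.52 FPKM (0.48, adjusted p = 3.69e-05). In none of these 3 genes did the treatments overlap. Heatr1 changed less, from 6.75 and 6.94 FPKM to 7.30 and 7.66 FPKM (0.22, adjusted p = 0.00842), and its sign flipped with TPM (-0.01).

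Nop14 and Noc4l encode partners in the small subunit precursor. Nop14 rose from 32.20 and 31.90 FPKM to 43.55 and 42.56 FPKM (log2 fold change 0.52, SE 0.0506, adjusted p = 6.48e-06). Noc4l was at 14.95 and 15.29 FPKM against 16.19 and 15.81 FPKM (0.18, adjusted p = 0.0247), with -0.06 under TPM and no call without DMSO replicate 1 (0.155), DMSO replicate 2 (0.0765) or risperidone replicate 1 (0.121). The later-acting factors Tsr1 and Bysl rose. Tsr1 was at 11.89 and 12.37 FPKM with DMSO and 16.63 and 15.95 FPKM with risperidone (0.52, adjusted p = 3.15e-05), while Srr, which it overlaps, fell (-0.61). Bysl was at 9.28 and 10.13 FPKM against 12.34 and 11.35 FPKM (0.38, adjusted p = 0.000528), a call lost with TPM (0.14). Emg1, for a methyltransferase of the small subunit RNA, rose from 45.08 and 48.57 FPKM to 58.90 and 56.05 FPKM (0.40, adjusted p = 0.000326). Rrp12, for a factor in subunit export, was at 6.64 and 6.51 FPKM against 7.12 and 7.45 FPKM (0.24, adjusted p = 0.00541), and with TPM it was uncalled (0.0040). Nob1, for the nuclease that makes the last cut of the small subunit RNA, was at 15.72 and 16.51 FPKM against 17.58 and 16.67 FPKM (0.19, adjusted p = 0.0396). Its sign flipped with TPM (-0.05), and the call was lost without DMSO replicate 1 (0.256), DMSO replicate 2 (0.108) or risperidone replicate 1 (0.188).

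Utp20, which encodes a very large scaffold protein of the processome, was the exception among the small subunit genes. It was at 4.0 and 4.38 FPKM with DMSO and 2.47 and 2.96 FPKM with risperidone, with no overlap. The log2 fold change was -0.53 (SE 0.0832, adjusted p = 0.000211) and ranged from -0.66 to -0.41 with 1 library left out. Utp20 carries 1 of the E-boxes printed above.

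Of the 8 genes for assembly factors of the large subunit, 5 were higher and 3 were not called, against 32.1% higher and 32.2% lower of all genes, with a median log2 fold change of 0.27. Noc2l (chr4:156234655-156247616), for a factor that escorts large subunit precursors out of the nucleolus, rose from 13.97 and 14.77 FPKM to 27.57 and 23.66 FPKM (log2 fold change 0.97, SE 0.0833, adjusted p = 2.63e-06). Its treatments were far apart, and the overlapping gene Klhl17 had a log2 fold change of 0.25 (adjusted p = 0.0896). Pes1, Bop1 and Wdr12 encode the members of the PeBoW complex, which is needed to process the large subunit RNA. Pes1 was at 32.10 and 31.04 FPKM with DMSO and 37.00 and 39.94 FPKM with risperidone (0.35, adjusted p = 0.000404). Wdr12 was at 10.67 and 12.04 FPKM against 12.48 and 14.20 FPKM (0.28, adjusted p = 0.0142), and lost its call without DMSO replicate 1 (0.168) or risperidone replicate 2 (0.0881). Bop1 was at 28.02 and 30.55 FPKM against 32.47 and 28.66 FPKM, which overlapped (0.16, adjusted p = 0.0893). Without risperidone replicate 2 Bop1 was called (0.25, adjusted p = 0.00344), and with TPM its sign flipped (-0.08). The genes of the PeBoW complex had changes of 0.16 to 0.35, and only those of Pes1 held with each library left out.

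Nop2, for a methyltransferase of the large subunit RNA, was at 30.31 and 29.58 FPKM with DMSO and 34.02 and 32.55 FPKM with risperidone (log2 fold change 0.25, adjusted p = 0.00339), and missed the threshold without DMSO replicate 2 (0.0533). Nop16 was at 13.18 and 13.84 FPKM against 17.73 and 14.99 FPKM (0.37, adjusted p = 0.00389). The calls of Nop2, Nop16, Pes1 and Wdr12 were lost with TPM, where Noc2l was the only gene of the 8 called higher and Ebna1bp2 was called lower (-0.23, adjusted p = 0.0307 from limma), against 15.0% and 51.7% of all genes. Rrp1b was at 8.46 and 7.36 FPKM against 8.25 and 8.93 FPKM (0.09, adjusted p = 0.243; -0.02 with TPM). Ebna1bp2 was at 11.70 and 10.56 FPKM against 10.72 and 10.03 FPKM (-0.01, adjusted p = 0.951). Both overlapped between treatments.

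Genes of the same machinery outside the set were listed from general knowledge, and their counts stand against 32.1% higher and 32.2% lower over all genes. Of 45 further genes of the small subunit processome and its later maturation, 28 were higher, 6 lower and 11 not called, with a median log2 fold change of 0.28. The kinase gene Riok2 (0.76) and the processome gene Wdr36 (0.63) rose, while Wdr3 (-0.60) and Imp4 (-0.31) fell. Of 50 further genes for large subunit assembly, 30 were higher, 6 lower and 14 not called, with a median of 0.25. Nop53 (1.09) and the GTPase gene Gtpbp4 (0.93) rose, and Ddx55 (-0.42) and Noc3l (-0.30) fell. Of 10 genes for snoRNP assembly, 5 were higher and 1 was lower, with Nufip1 (0.88) and Znhit6 (0.76) at the top and Pih1d1 (-0.42) lowest. Of 14 genes of the RNA exosome and its helper factors, 6 were higher and 1 was lower, namely Exosc9 and Exosc1 (both 0.52) against the helicase gene Mtrex (-0.34). With TPM the balance moved for these lists too, to 13 higher and 12 lower of the 45 small subunit genes and to 18 higher and 11 lower of the 50 large subunit genes, where 15.0% of all genes were higher and 51.7% lower.

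**Figure D5:**
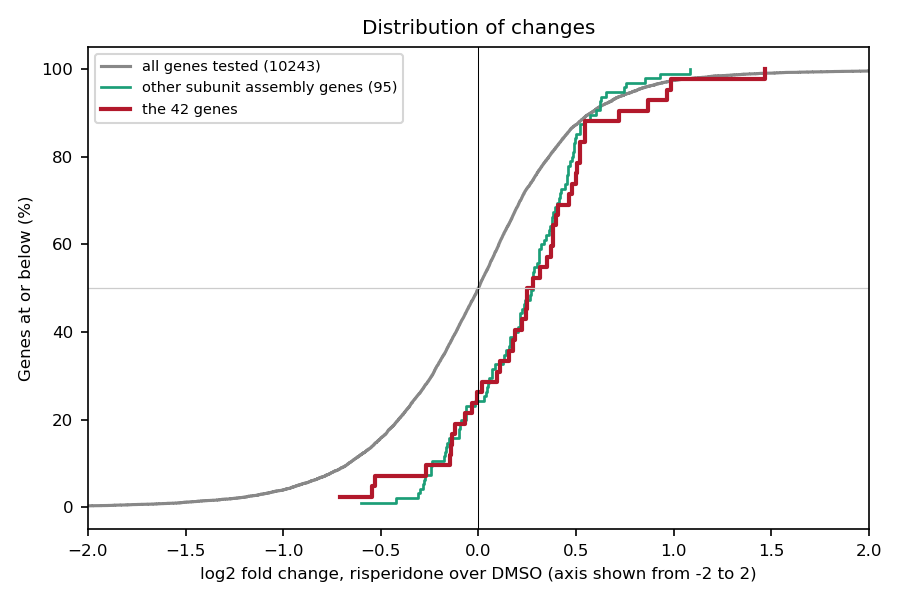
Cumulative share of genes (in percent) by log2 fold change, risperidone over DMSO, for all 10243 genes tested, for 95 other genes of subunit assembly and for the 42 genes. The curve of all genes crosses 50% at 0.00 and that of the 42 genes at 0.27, and the curve of the other assembly genes runs close to that of the set.

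Some members also host the RNAs that snoRNPs carry. By RefSeq, 7 of the 42 genes (16.7%) have snoRNA genes inside them, 19 in all, against 252 of 10224 tested genes found in RefSeq (2.46%). Nop56 holds 5, Nop58 4, Gnl3 and Wdr43 3 each, Ncl 2, and Dkc1 and Tsr1 1 each. Of these hosts Gnl3, Wdr43 and Tsr1 were higher, Nop56 was lower, and Nop58, Ncl and Dkc1 were not called. Of the 252 tested hosts, 120 were higher and 56 lower, against 32.1% and 32.2% of all genes. Hosts were found by position alone, without regard to strand, and how many of the 252 encode ribosomal proteins was not counted. The table's values for these genes do not measure the snoRNAs.

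Shorter genes of the set tended to have the higher changes. Spearman's correlation between log2 fold change and the effective length implied by count and FPKM was -0.33 over the 42 genes, which share the same 4 libraries, and -0.17 over all genes tested. With offsets for gene length it was -0.12 in the set, while 26 genes were called higher and 5 lower (33.2% and 32.1% of all genes), with a median of 0.26. The calls of Polr1a, Fbl, Nhp2 and Nob1 were lost with these offsets and those of Rrn3, Ncl, Nop10 and Rrp1b were gained. Of 14 dividing cell markers 10 were tested, 4 were higher and 1 was lower (32.1% and 32.2% of all genes), and their sum was 148 and 147 CPM with DMSO and 152 and 155 CPM with risperidone. The largest part of that sum was Pcna (58.8 and 61.3 CPM against 48.2 and 50.1 CPM), the gene called lower (log2 fold change -0.19). Called higher were Top2a (0.79), Ccnb1 (0.63), Cdk1 (0.60) and Mcm2 (0.44).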

How the data were processed

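Per the study's methods, libraries were made for DMSO and risperidone from RNA pooled over 3 cultures each, and reads with adaptors, poly-N or low quality were removed. The submitters' processing notes name Bowtie2, RSEM, DESeq2 and GRCm38.p6, with no role or version, and the annotation and use of strand are not given in the sources used here. The deposited table holds estimated counts (expected counts, not normalized), FPKM (scaled by gene length and depth) and TPM (with the same sum in each library), all computed by the authors. The averages over replicates in the table are the authors' means and were not used. Counts summed to 16374119 and 15883712 for DMSO and to 16269448 and 15977936 for risperidone, so that 3 counts, the most a count of 0 allows, are 0.183 to 0.189 CPM (counting error only). Replicates exceeded the 5% point of counting error in 12.4% (DMSO) and 23.6% (risperidone) of genes with enough counts.

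After rounding the counts, the 10243 genes that averaged 1 FPKM or more were tested with the quasi-likelihood F-test of edgeR 4.0.16 in R 4.3.3 (TMM, two-sided, Benjamini-Hochberg adjustment over these genes, threshold 0.05). The SE of a log2 fold change is its size over the square root of F. Alternatives were no filter, a mean of at least 5 FPKM, RLE factors, library size only, offsets for effective gene length, DESeq2 1.42.0, limma 3.58.1 on log2(FPKM + 1), log2(FPKM + 0.1), log2(TPM + 1) and quantile-normalized values, a replicate block, a change of at least 0.5, and each library left out. On simulated data with 200 of 10243 genes changed by a log2 of 1, the recovered shares were 98.0% for edgeR (7 false calls), 98.0% for the length offsets (6), 91.5% for DESeq2 (0) and 98.5% for limma (12). In the data, 64.3% of genes were called and the median log2 fold change of the 42 genes was 0.27. The simulated shares therefore do not measure how well the calls reported here were made. Where a trend with gene length was simulated as well, false calls numbered 2540 in edgeR, and 6 when the offsets were used. The size of that trend was set and not fitted to the data, so 2540 does not estimate the false calls here.

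The 42 genes and the lists were chosen with earlier results of these data known. Named are all 42 genes and, from each other list, up to 2 highest and 2 lowest called genes whose libraries do not overlap between treatments. Polymerase subunit classes, and the choice of 30 bases around each E-box, were made after the values were seen. Counts are not whole for Fbl, Emg1, Bysl, Tsr1 and Noc2l, and 13 of the 42 genes overlap another gene of the table, so reads of these genes may be shared. Tables were read with Python 3.11.15 and pandas 2.3.3.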

Additional observations from a re-analysis of the deposited data

How the results depend on the processing

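For the 42 genes, 506 of 627 values under the 15 alternatives other than the size of change kept their direction and side of the threshold, 72 kept their direction but lost the call, 31 kept it and gained one, and 18 changed sign, with or without a change of call. With TPM, 13 were higher and 12 lower (15.0% and 51.7% of all genes). Of the other genes, those called lower for RNA polymerase I numbered 7, higher for RNA polymerase III 3, higher and lower for the small subunit 13 and 12, for the large subunit 18 and 11, for snoRNP assembly 3 and 3 and for the exosome 3 and 5. TPM also turned Rrn3 (-0.12), Ncl (-0.19), Heatr1 (-0.014), Noc4l (-0.060), Nob1 (-0.054), Bop1 (-0.082) and Rrp1b (-0.021). With library size only and with limma on FPKM (both pseudocounts), 8 of the 42 were lower, as were 5 other RNA polymerase I and 3 exosome genes, and 4 RNA polymerase III genes were higher. Of all genes, 24.4% were higher and 39.9% lower with library size only. With limma on FPKM, 38.8% of all genes were lower with either pseudocount, and 23.6% (pseudocount of 1) and 23.7% (0.1) were higher. Ncl changed sign with library size only (-0.073), pseudocounts of 1 (-0.048) and 0.1 (-0.048), quantile normalization (-0.057) and a mean of at least 5 FPKM (-0.0042), and ranged from -0.016, without risperidone replicate 2, to 0.056 with 1 library left out. Rrp1b did so with library size only (-0.00023), Dkc1 with quantile normalization (0.0033), and Ebna1bp2 with quantile normalization (0.046), without DMSO replicate 1 or without risperidone replicate 2, with a range of -0.079 to 0.073 over the libraries left out. A change of at least 0.5 left 11 higher and 3 lower of the 42 (12.4% and 15.3% of all genes). Of the other lists it left, higher and lower, 2 and 4 genes for RNA polymerase III, 7 and 1 for the small subunit, 8 and 0 for the large subunit, 3 and 0 for snoRNP assembly, 2 and 0 for the exosome, with 3 lower in the Myc network. The fit with no filter gave 3 lower of the 42 and DESeq2 20 higher and 3 lower, with 4 higher for RNA polymerase III, 2 lower for the large subunit and 0 for snoRNP assembly. With no filter, 22 of the 42 were higher, and 18.4% of all genes were higher and 19.3% lower. The shares of all genes were 25.8% and 25.9% with DESeq2. A mean of at least 5 FPKM left 5 lower for RNA polymerase III. Length offsets left 3 lower for the small subunit and 2 for the exosome, and quantile normalization 3 lower for the large subunit. With each library left out (the lone library of a treatment is then assumed to vary like the pair), 20 to 27 of the 42 were higher and 3 to 5 lower. The other lists had 4 to 6 higher for RNA polymerase III, and 3 to 6 lower for the small subunit, 3 to 5 for the large subunit and 0 to 1 for snoRNP assembly. With a library left out, the shares of all genes called moved too, so these counts alone do not set the lists against all genes. In these fits the median log2 fold change of the 42 genes lay 0.26 to 0.29 above that of all genes. The cause of the changes with processing was not tested.

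The labels do not say that equal replicate numbers pair libraries, and same-numbered libraries did not deviate together (correlation -0.107 over 10243 genes). With the replicate block, 27 genes were higher and 4 lower (32.1% and 32.4% of all genes). Nop56 (adjusted p = 0.0527) and Nob1 (0.0617) were lost, and Gar1 (0.0319) and Bop1 (0.0357) were gained. With 2 pools per treatment, the smallest called changes of the 42 genes were -0.14 on the log2 scale, those of Polr1a and Nop56, and neither call held under all alternatives.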
